A study of Mus musculus with 3 samples.

Results

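Resident macrophages of the aortic wall were compared between mutant mice with an aneurysm and mutant mice with dilation only. The cells were chosen by their counts: a barcode was kept when its top hashtag had at least 3 times the counts of the second, when at most 10% of its unique molecular identifiers (UMIs, 1 per captured molecule) were mitochondrial, and when it held at least 3000 UMIs. Per 10000 UMIs, *C1qa*, *C1qb* and *C1qc* together had to reach 20 and *Lyve1*, *Folr2*, *F13a1* and *Cbr2* together 15, and *Cd79a* and *Cd3e* had to be at 0. Of 8471 barcodes in all, 5348 passed the limits on hashtag, depth and mitochondrial share, and 1636 of these were resident macrophages, 561 from WT and 1075 from mutant mice. The comparison rests on the 1075 mutant cells, 601 from 3 mice with dilation (137, 163 and 301 cells in mice 6, 8 and 10) and 474 from 2 mice with aneurysm (200 and 274 cells in mice 7 and 9). Mice are called here by the number of the hashtag antibody that marked their cells.

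The study used CITE-seq, which counts transcripts and DNA-tagged surface antibodies in the same cell, on CD45+ cells of the aorta. Mutant mice, Jak2V617F Myel (named Jak2V617F MyC in the sample descriptions), carry the Jak2V617F allele behind LysM-Cre, which acts mainly but not solely in myeloid cells; the strain is C57BL/6, the 5 Jak2WT controls and the 5 mutant mice received no treatment, and their age was not found in the sources used here. An aneurysm was seen by eye in mutant mice 7 and 9, while mutant mice 6, 8 and 10 had aortic dilation without aneurysm, so both groups compared carry the mutation and differ in aortic disease. The paper states that male and female mice were used, and the sex of each mouse was not found here. With no filter on low counts, the log2 fold change, aneurysm over dilation, was 0.51 for *Xist* and -0.66 for the Y-linked *Ddx3y*. The part of sex in the results was not tested. Circulating cells were marked by an intravenous anti-CD45.2 antibody and left out, aortas were digested for 45 minutes at 37 °C, and all 10 mice were pooled into 1 sort and 1 run.

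Resident macrophages of the adventitia settle in the artery before or soon after birth, renew mostly in place, and are known by LYVE-1, folate receptor beta and the mannose receptor. In the healthy vessel they take up dying cells and debris and restrain collagen production by smooth muscle cells. Macrophages that arise from blood monocytes, by contrast, carry CCR2 when they enter and can secrete interleukin-1, chemokines and matrix proteases. JAK2 passes signals from cytokine receptors to STAT transcription factors, and the V617F change keeps it active without ligand.

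The chosen cells carried the markers of their name that the rule did not use. The floor on *Lyve1*, *Folr2*, *F13a1* and *Cbr2* favors similar levels of such markers between mice in advance. *Mrc1*, the mannose receptor, stood at 1887, 2144 and 1996 CPM in mice 6, 8 and 10 and 1942 and 1970.1 CPM in mice 7 and 9. *Cd163*, the hemoglobin scavenger receptor, stood at 1196, 1361 and 1396 CPM with dilation and 986 and 1120.4 CPM with aneurysm. *Timd4*, a receptor for phosphatidylserine, stood at 134, 124 and 123 CPM with dilation and 91.9 and 122 CPM with aneurysm. The summed level of 18 such markers was 13049 to 14243 CPM in all 5 mutant mice (CPM is UMIs of a gene per 1000000 UMIs of all genes, summed over the resident macrophages of a mouse). These sums held 1646141, 2024343 and 3422240 UMIs with dilation and 2785774 and 3578944 UMIs with aneurysm, and the median cell held 10394 to 11218 and 12160.5 to 12691.5 UMIs. *Jak2* itself stood at 20.7, 24.2 and 24 CPM in mice 6, 8 and 10 and 28.4 and 29.9 CPM in mice 7 and 9 and at 17.8 to 39.1 CPM (median 30.1) in WT mice; 3′ counts of the gene do not tell the mutant from the normal allele. *Lyz2*, whose promoter drives the Cre, stood at 5127, 6154 and 5441 CPM with dilation and 5261 and 5780.2 CPM with aneurysm and was found in every mouse.

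The study's method for hashtags, HTODemux, called 293 of the 1075 mutant cells (27.3%) doublets, 24.1%, 27.0% and 23.9% in mice 6, 8 and 10 and 31.5% and 29.6% in mice 7 and 9. Cells with at least 10 UMIs of neutrophil, red cell or fibroblast genes numbered 0, 5 and 10 in mice 6, 8 and 10 and 2 and 5 in mice 7 and 9. Cells with a UMI of *Ccr2*, *Spp1*, *Mmp12*, *Plac8*, *Ly6c2* or *Chil3*, markers of monocytes and their recent progeny, were 23.4%, 24.5% and 22.3% of the cells of mice 6, 8 and 10 and 47.5% and 32.8% of those of mice 7 and 9. Such cells were more frequent in both mice with aneurysm than in any with dilation. These shares were taken without thinning, and the median cell held 12691.5 and 12160.5 UMIs in mice 7 and 9 against 10394 to 11218 with dilation. The part of depth in the shares was not tested. The lists of genes below are given with and without the cells that held these markers.

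Resident macrophages were a smaller share of all C1q-expressing macrophages in both mice with aneurysm. They made up 82.0%, 85.3% and 69.7% of these cells in mice 6, 8 and 10 and 43.8% and 51.1% in mice 7 and 9, and the groups did not overlap. The means were 79.0% ± 8.26 (SD, n = 3) and 47.4% ± 5.20 (SD, n = 2), a difference of -31.6 percentage points, for which the exact permutation test, two-sided, gave p = 0.1, the smallest p that 2 against 3 mice allow. In WT mice the share was 62.9% to 85.6%. The share alone says nothing of cell numbers in the aorta. C1q-expressing cells numbered 167, 191 and 432 in mice 6, 8 and 10 and 457 and 536 in mice 7 and 9. The sort was set to balance WT against mutant cells, not the mutant mice among themselves.

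**Figure D1:**
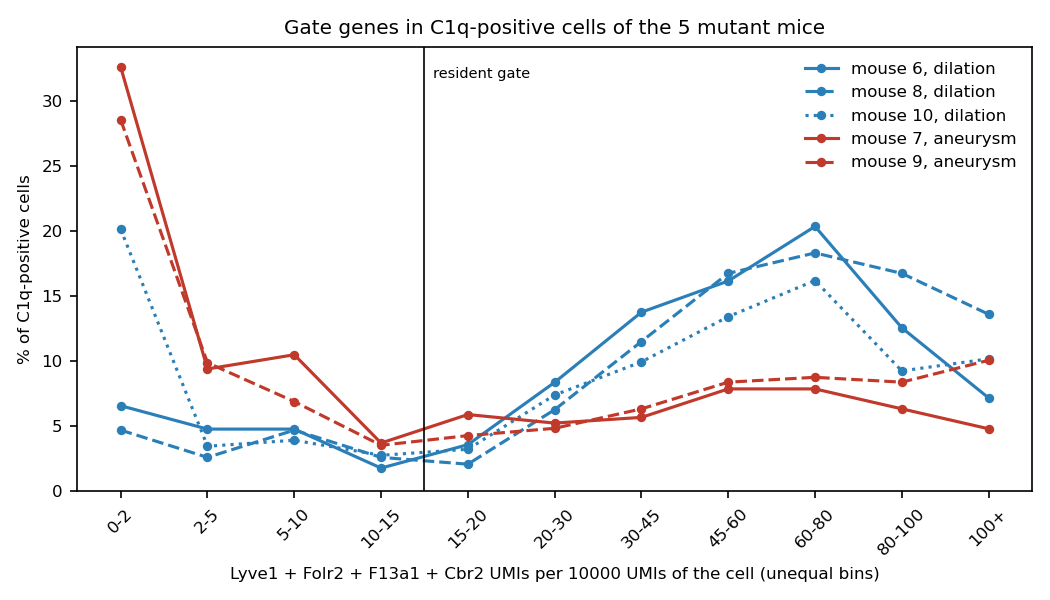
Percentage of C1q-expressing cells of each mutant mouse (y axis) in bins of unequal width of the summed Lyve1, Folr2, F13a1 and Cbr2 UMIs per 10000 UMIs of the cell (x axis); the vertical line marks the limit of 15. In mice 7 and 9 the bins at the left hold most of the cells outside the gate, and 69.7% to 85.3% of the cells of mice 6, 8 and 10 lie right of the line against 43.8% and 51.1% in mice 7 and 9.

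In the 5 mutant mice 74 cells lay just inside it, between 15 and 20 per 10000, and 56 just outside, between 10 and 15. The cells just inside were 4.38%, 2.45% and 4.65% of the resident macrophages of mice 6, 8 and 10 and 13.5% and 8.39% of those of mice 7 and 9. A larger part of the cells of mice with aneurysm therefore sat near the limit.

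Few transcripts differed between the groups beyond the spread between mice. Of 9961 genes tested by edgeR's quasi-likelihood test, 7 (0.0703%) rose with aneurysm and 1 (0.01%) fell at a Benjamini-Hochberg adjusted p under 0.05, and 774 (413 higher, 361 lower; 7.77%) had an unadjusted p under 0.05. The genes that rose were *S100a8*, *Rcan1*, *Plscr1*, *Cxcl3*, *Tnfaip2*, *Spp1* and *AA467197*, and the gene that fell was *Jun*. The median log2 fold change of all genes was -0.01, and of 2871 genes at 50 CPM or more 99.4% differed by less than 2-fold. Among all genes tested, both mice with aneurysm stood above all 3 with dilation for 13.6% and below for 10.2%, which is the background for any statement that the groups did not overlap in a transcript. DESeq2, run on the same sums, called 23 genes higher and 10 lower over all genes, the background for its counts in the lists below. The number of genes it tested is not given here.

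**Figure D2:**
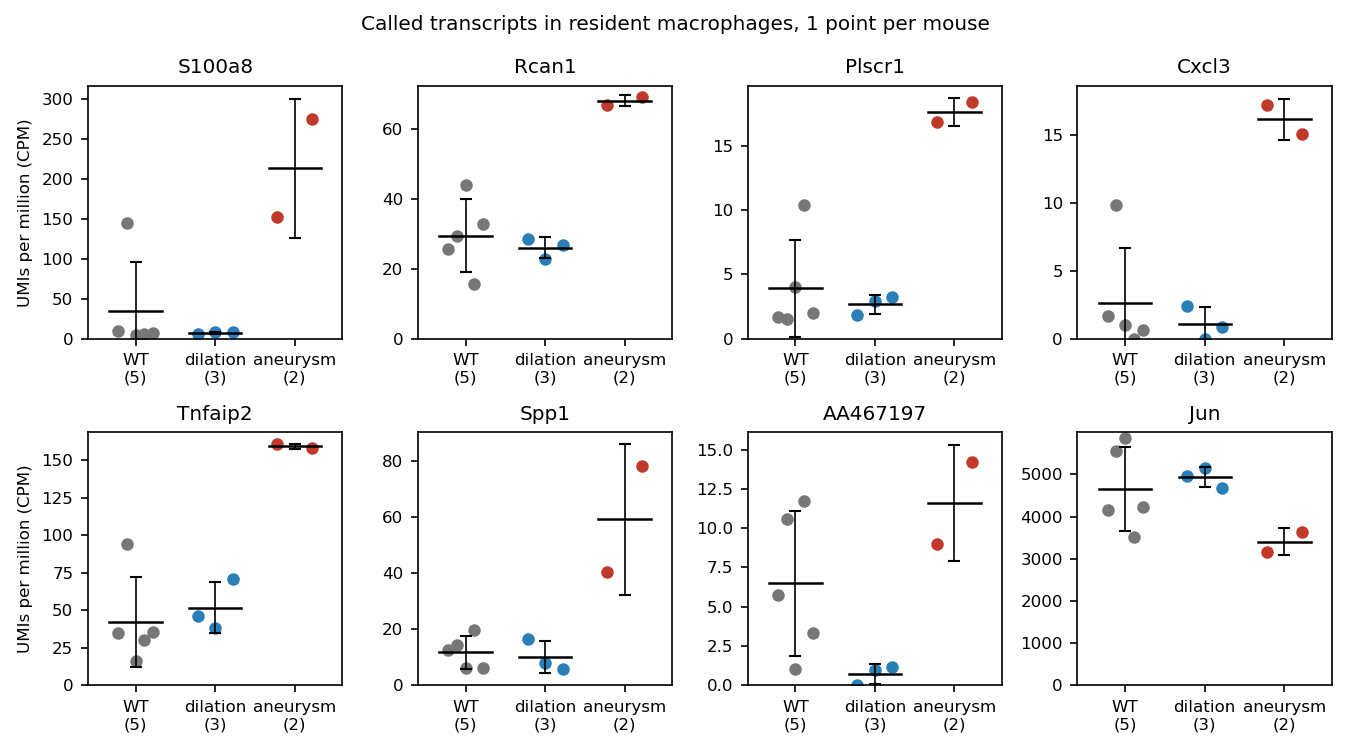
CPM of the 8 called genes in resident macrophages (y axes, from 0), 1 point per mouse in 5 WT, 3 dilation and 2 aneurysm mice; horizontal lines are means and bars the SD. Both aneurysm mice lie above the 3 dilation mice for 7 genes and below them for Jun, and for AA467197 and Jun 1 of the 2 aneurysm mice lies within the range of the WT mice.

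Among the 7 genes that rose, *Rcan1* and *Tnfaip2* were found in the most cells. *Rcan1* encodes regulator of calcineurin 1, an inhibitor of the phosphatase calcineurin that calcium signals switch on. Its gene (ENSMUSG00000022951) lies on chr16:92391953-92470867, minus strand, mm10. It stood at 28.6, 22.7 and 26.9 CPM in mice 6, 8 and 10 and 67.1 and 69.3 CPM in mice 7 and 9, or 68.2 ± 1.53 CPM (SD, n = 2) against 26.1 ± 3.0 CPM (SD, n = 3) (log2 fold change 1.37 ± 0.14 (SE), adjusted p = 0.00747). Both values with aneurysm were above all 3 with dilation and above the range of WT mice, 15.6 to 44.2 CPM (median 29.5). A UMI was found in 23 of 137, 34 of 163 and 50 of 301 cells with dilation and in 64 of 200 and 77 of 274 with aneurysm, and no cell held more than 17.0% of a mouse's UMIs. After every cell was thinned to 3000 UMIs, the share with a UMI was 5.84%, 4.91% and 5.98% of the cells of mice 6, 8 and 10 and 16% and 11.3% of those of mice 7 and 9, against 1.32% of T cells (median depth before thinning 7044.5 UMIs in T cells and 11369 in resident macrophages). T cells are given for comparison and need not lack the gene. The difference was called without the cells that held monocyte markers (log2 fold change 1.49, adjusted p = 0.00581) and among HTODemux singlets (1.63, adjusted p = 0.00946). It was not called under the stricter gate (1.07, adjusted p = 0.0925) or in the fit of all 10 mice (1.37, adjusted p = 0.135), in which none of the 8 genes was called.

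*Tnfaip2* encodes a protein induced by tumor necrosis factor that takes part in the growth of membrane tubes between cells. It lies on chr12:111442469-111455018, plus strand. It stood at 46.2, 38 and 70.7 CPM in mice 6, 8 and 10 and 160.5 and 158 CPM in mice 7 and 9, or 159 ± 1.63 CPM (SD, n = 2) against 51.6 ± 17 CPM (SD, n = 3) (log2 fold change 1.56 ± 0.21 (SE), adjusted p = 0.0327). The 2 values with aneurysm were close to each other and above the others, and WT mice ranged from 16.1 to 93.8 CPM (median 34.6). A UMI was found in 36, 41 and 49 cells of mice 6, 8 and 10 and in 94 and 98 cells of mice 7 and 9. Thinned to 3000 UMIs, the share of cells was 10.9%, 11% and 9.3% of the cells of mice 6, 8 and 10 and 24.5% and 17.9% of those of mice 7 and 9, against 0.877% of T cells. Macrophages with a *Lyve1* list under 5 per 10000 held more of it in every mutant mouse, 279, 439 and 887 CPM with dilation and 574 and 495 CPM with aneurysm. Without the cells that held monocyte markers the log2 fold change was 1.58 (adjusted p = 0.000874), and without mouse 7 it was 1.54 (adjusted p = 0.0559).

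The start regions of the called genes were searched for letters that factors of the stress, STAT and NF-kappaB responses are known to bind. All 8 genes matched RefSeq (GRCm38.p6) with 10 promoters of 300 bases, 250 before and 50 after each start. The motifs were TGANTCA for AP-1, TGACGTCA for the cyclic AMP response element, TTCNNNGAA for the GAS element of STAT proteins, and the kappaB element of NF-kappaB, on both strands; they occur in 7.81%, 1.79%, 8.30% and 8.46% of 32851 promoters of this length. The 4 sequences shown are those that hold a match and belong to *Rcan1*, *Tnfaip2*, *Plscr1* and *Cxcl3*, with the match in capitals. For *Rcan1* the sequence is that of the inner of its 2 starts.
Rcan1, chr16:92400029-92400328, strand -: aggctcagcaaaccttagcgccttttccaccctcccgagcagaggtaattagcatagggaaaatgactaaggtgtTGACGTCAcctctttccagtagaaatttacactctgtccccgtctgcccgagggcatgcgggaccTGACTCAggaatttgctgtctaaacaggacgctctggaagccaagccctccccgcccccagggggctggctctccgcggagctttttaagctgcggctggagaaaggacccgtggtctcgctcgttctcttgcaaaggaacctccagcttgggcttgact
Tnfaip2, chr12:111442411-111442710, strand +: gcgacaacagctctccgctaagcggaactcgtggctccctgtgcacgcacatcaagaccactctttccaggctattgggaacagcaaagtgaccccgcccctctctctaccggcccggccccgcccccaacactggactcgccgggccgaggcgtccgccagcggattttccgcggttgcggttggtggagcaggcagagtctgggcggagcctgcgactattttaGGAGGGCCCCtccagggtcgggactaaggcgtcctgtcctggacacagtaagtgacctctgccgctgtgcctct
Plscr1, chr9:92249944-92250243, strand +: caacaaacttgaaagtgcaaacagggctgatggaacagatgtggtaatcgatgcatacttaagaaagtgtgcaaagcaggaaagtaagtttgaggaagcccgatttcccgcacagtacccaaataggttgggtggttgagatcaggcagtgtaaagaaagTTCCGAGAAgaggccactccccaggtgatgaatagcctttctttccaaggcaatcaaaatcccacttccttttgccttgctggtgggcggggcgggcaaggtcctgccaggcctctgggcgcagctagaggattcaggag
Cxcl3, chr5:90785851-90786150, strand +: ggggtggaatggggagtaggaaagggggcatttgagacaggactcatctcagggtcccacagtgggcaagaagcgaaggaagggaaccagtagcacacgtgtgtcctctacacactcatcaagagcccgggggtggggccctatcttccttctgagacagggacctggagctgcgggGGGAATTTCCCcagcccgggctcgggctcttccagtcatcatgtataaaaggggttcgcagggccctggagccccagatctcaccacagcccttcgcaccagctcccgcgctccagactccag
The *Rcan1* promoter held the cyclic AMP response element at -175 and AP-1 at -110 from the start. *Tnfaip2* held a kappaB element at -24, *Plscr1* a GAS element at -90, and *Cxcl3* a pair of overlapping kappaB matches from -73. The *AA467197* promoter held AP-1 at -73. The promoters of *S100a8*, *Spp1* and *Jun* and the outer one of *Rcan1* held none of these letters. A match describes the sequence and does not show binding.

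*Plscr1*, *Cxcl3*, *Spp1* and *AA467197* rose from low levels and in small numbers of cells. Without the cells that held monocyte markers, none of these genes had enough counts to be tested. *Spp1* is itself a marker by which those cells were chosen. Among HTODemux singlets, only *Spp1* of these genes could be tested. *Plscr1* encodes a membrane protein that interferon induces, phospholipid scramblase 1, and stood at 1.82, 2.96 and 3.21 CPM in mice 6, 8 and 10 and 16.9 and 18.4 CPM in mice 7 and 9 (log2 fold change 2.62 ± 0.29 (SE), adjusted p = 0.0153). Its UMIs came from 2, 6 and 10 cells with dilation and from 24 and 22 cells with aneurysm. Its range in WT mice, 1.51 to 10.4 CPM (median 1.97), lay below both aneurysm values. *Cxcl3* encodes a chemokine that draws neutrophils through CXCR2, and stood at 2.43, 0 and 0.877 CPM in mice 6, 8 and 10 and 17.2 and 15.1 CPM in mice 7 and 9 (log2 fold change 3.93 ± 0.52 (SE), adjusted p = 0.0327). Its UMIs, 4, 0 and 3 against 48 and 54, lay in 3, 0 and 2 cells with dilation and 9 cells in each mouse with aneurysm. *Cxcl3* was no longer called when mouse 10, 7 or 9 was left out (adjusted p = 0.0525 to 0.112).

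*Spp1* encodes osteopontin, a matrix protein that macrophages secrete in lipid-rich and scarred tissue. It stood at 16.4, 7.9 and 5.55 CPM in mice 6, 8 and 10 and 40.2 and 78.2 CPM in mice 7 and 9, or 59.2 ± 26.9 CPM (SD, n = 2) against 9.95 ± 5.71 CPM (SD, n = 3) (log2 fold change 2.70 ± 0.37 (SE), adjusted p = 0.0383). WT mice ranged from 5.92 to 19.6 CPM (median 12.4), so only the mice with aneurysm were above 20 CPM. Its UMIs lay in 29 of 200 and 37 of 274 cells with aneurysm and in 10, 14 and 16 cells with dilation, and in mouse 7 the top 4 cells held 70.5% of them. Macrophages low in *Lyve1* held 97.9, 0 and 76.7 CPM with dilation and 421 and 1209 CPM with aneurysm. Among HTODemux singlets the log2 fold change of *Spp1* was 2.09 (adjusted p = 0.173), and it was not called without mouse 8, 10 or 9 (adjusted p = 0.0742 to 0.148).

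*AA467197* encodes a small mitochondrial protein, NMES1. It stood at 0, 0.988 and 1.17 CPM in mice 6, 8 and 10 and 8.97 and 14.3 CPM in mice 7 and 9 (log2 fold change 3.71 ± 0.53 (SE), adjusted p = 0.0481). The value of mouse 7 lay within the range of WT mice, 1.0 to 11.7 CPM (median 5.77), that of mouse 9 lay above it, and 1 cell held 51.0% of the 51 UMIs of mouse 9. In macrophages low in *Lyve1* it stood at 18.1, 4.18 and 2.95 CPM with dilation and 171 and 151 CPM with aneurysm. It was not called without mouse 8, 10 or 9 (adjusted p = 0.112 to 0.218).

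The largest fold change belonged to *S100a8* and came from 1 cell of mouse 7 and 4 cells of mouse 9. *S100a8* encodes a subunit of calprotectin, an abundant protein of neutrophils. It stood at 6.07, 7.9 and 7.89 CPM in mice 6, 8 and 10 and 152 and 275 CPM in mice 7 and 9 (log2 fold change 4.81 ± 0.27 (SE), adjusted p = 5.92e-05). In mouse 7 a single cell held 411 of 423 UMIs, and in mouse 9 a single cell held 702 and 4 cells 98.2% of 983. After thinning, a UMI was found in 3.65%, 2.45% and 1.66% of the cells of mice 6, 8 and 10 and 1.0% and 3.65% of those of mice 7 and 9, which is no higher than the 4.17% of T cells. *S100a9*, its partner in calprotectin, stood at 5.47, 9.88 and 7.6 CPM with dilation and 7.9 and 365 CPM with aneurysm, with 813 of the 1308 UMIs of mouse 9 in 1 cell. The summed neutrophil list was 31.9 to 37 CPM with dilation and 178 and 716 CPM with aneurysm. Without the 22 mutant cells that held at least 10 UMIs of neutrophil, red cell or fibroblast genes, a choice made after seeing the data, the log2 fold change of *S100a8* was -0.54 (adjusted p = 0.770), and the other 7 calls were kept.

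**Figure D3:**
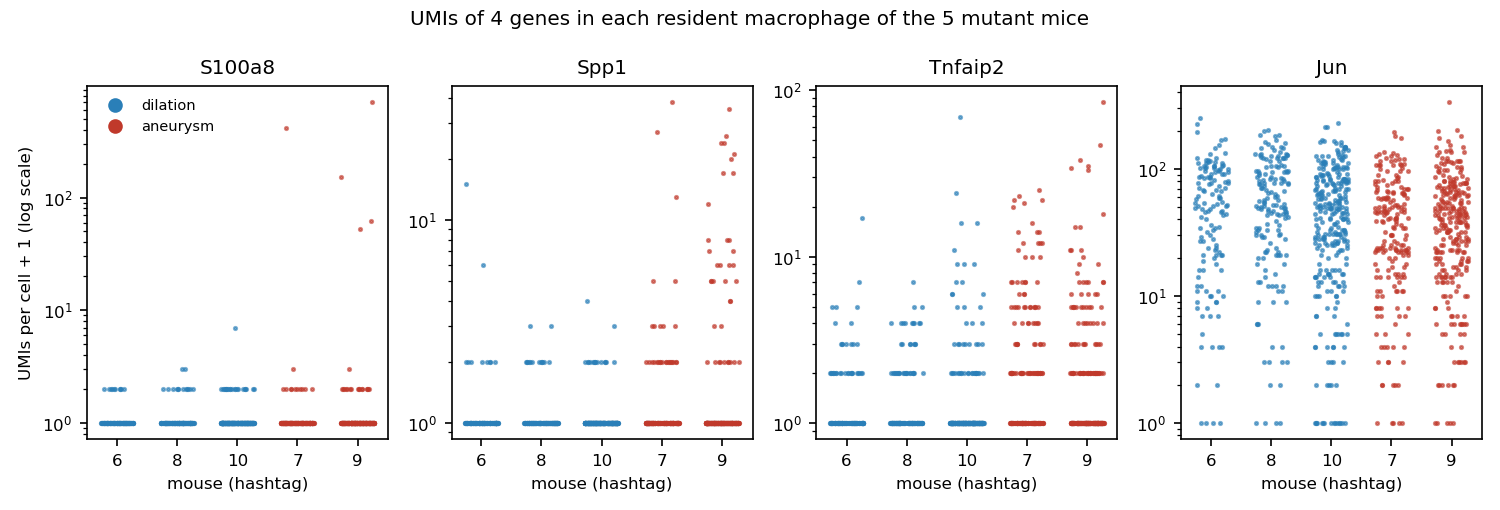
UMIs plus 1 of S100a8, Spp1, Tnfaip2 and Jun (y axes, log scale) in each resident macrophage of mutant mice 6, 8, 10, 7 and 9 (x axes), 1 point per cell. S100a8 is high in 1 cell of mouse 7 and 4 cells of mouse 9, Tnfaip2 is spread over 94 and 98 cells, and Jun is found in nearly every cell of every mouse.

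*Jun* was the single gene that fell. It encodes a subunit of AP-1, the factor that growth and stress signals switch on within minutes. It stood at 4961, 5166 and 4681 CPM in mice 6, 8 and 10 and 3170.4 and 3624 CPM in mice 7 and 9, or 3397 ± 321 CPM (SD, n = 2) against 4936 ± 243 CPM (SD, n = 3) (log2 fold change -0.56 ± 0.07 (SE), adjusted p = 0.0327). Both values with aneurysm were below all 3 with dilation, while WT mice ranged from 3516 to 5858 CPM (median 4223) and overlapped both groups. Nearly every cell held it, 133 of 137, 159 of 163 and 286 of 301 with dilation and 195 of 200 and 269 of 274 with aneurysm. Among HTODemux singlets the log2 fold change was -0.61 (adjusted p = 0.0597), and without the cells that held monocyte markers -0.48 (adjusted p = 0.0917). Without mouse 6, 8 or 7 it was -0.48 to -0.56, and not called (adjusted p = 0.0509 to 0.120).

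Of 22 immediate-early and heat-shock genes, *Jun* was called (7 at an unadjusted p under 0.05, 2 called by DESeq2) and 18 had a fold change below 0 (median -0.18, against -0.01 for all genes). The list had 5 of 21 above 0 (median -0.12) without the cells that held monocyte markers. *Hspa1a* and *Hspa1b*, the inducible chaperones HSP70, did not pass the adjusted threshold of edgeR: *Hspa1a* stood at 4686, 4626 and 3213 CPM with dilation and 2794 and 2809 CPM with aneurysm (log2 fold change -0.59 ± 0.13 (SE), adjusted p = 0.202). It was called with DESeq2 (adjusted p = 0.0417) and without mouse 10 (adjusted p = 0.00340), and *Hspa1b* without mouse 10 (adjusted p = 0.0278). *Hsp90aa1* stood at 2917, 2513 and 2004 CPM with dilation and 1824 and 1663 CPM with aneurysm (log2 fold change -0.52 ± 0.13 (SE), adjusted p = 0.240), and *Atf3*, a factor of the stress response, at 3008, 2865 and 2935 CPM with dilation and 2181 and 2557 CPM with aneurysm (log2 fold change -0.33 ± 0.08 (SE), adjusted p = 0.233). For all 3 both mice with aneurysm were below all with dilation. Over the whole list this held for 7 members and the reverse for 2, against 10.2% and 13.6% of all genes tested. *Fos*, *Fosb*, *Junb* and *Egr1* overlapped between the groups, *Fos* at 3566, 3357 and 4498 CPM with dilation and 3159 and 3964 CPM with aneurysm. *Nr4a1*, an orphan nuclear receptor of the same class, stood on the other side at 583, 529.6 and 608 CPM with dilation and 814 and 732 CPM with aneurysm (log2 fold change 0.41 ± 0.11 (SE), adjusted p = 0.258). Per cell, the median sum of the list was 498, 487 and 461 per 10000 UMIs with dilation and 363 and 409 with aneurysm. The part of the digestion of the aortas in the levels of these genes was not tested.

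The genes with the next smallest p were not called by edgeR with all 5 mice, and some were called in other fits. Among those higher with aneurysm, *Lhfpl2* had 1 UMI in each mouse with dilation and 21 in each with aneurysm. This gene was called without mouse 6 (adjusted p = 0.0400). *Lcn2*, the iron-binding protein lipocalin-2, stood at 0.607, 0.988 and 0.292 CPM with dilation and 6.46 and 7.82 CPM with aneurysm (log2 fold change 3.53 ± 0.54 (SE), adjusted p = 0.0661), with most UMIs in 1 cell of each mouse with aneurysm. *Lcn2* was called without mouse 6 (adjusted p = 0.0476) and with equal cell numbers (adjusted p = 0.0424). *Cd72*, a receptor known from B cells, stood at 14, 21.2 and 22.2 CPM in mice 6, 8 and 10 and 47.7 and 43.6 CPM in mice 7 and 9 (log2 fold change 1.19 ± 0.19 (SE), adjusted p = 0.0797). *Cd72* was called with DESeq2 (adjusted p = 0.0244) and without mouse 6 (adjusted p = 0.0383). Its 2 values with aneurysm lay within the range of WT mice, 18.1 to 70.4 CPM (median 37.1). In macrophages low in *Lyve1*, *Cd72* stood at 54.4, 16.7 and 22.1 CPM with dilation and 429.7 and 359 CPM with aneurysm.

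On the lower side, *Angptl4*, a secreted inhibitor of lipoprotein lipase, stood at 5.47, 5.93 and 6.14 CPM with dilation and 0.718 and 0.559 CPM with aneurysm (log2 fold change -3.16 ± 0.52 (SE), adjusted p = 0.0839). *Ddit4*, an inhibitor of mTOR that stress and glucocorticoids induce, stood at 49.2, 59.8 and 50.6 CPM with dilation and 22.6 and 31.6 CPM with aneurysm (log2 fold change -0.98 ± 0.16 (SE), adjusted p = 0.0839). *Nr1d1*, the clock repressor REV-ERB alpha, stood at 75.3, 72.6 and 41.5 CPM with dilation and 31.6 and 19.6 CPM with aneurysm (log2 fold change -1.30 ± 0.28 (SE), adjusted p = 0.163). All 3 were lower in both mice with aneurysm than in any with dilation, and none passed the threshold of edgeR. *Ddit4* was called with DESeq2 (adjusted p = 0.0417), without mouse 6 (adjusted p = 0.0497), without mouse 9 (adjusted p = 0.0476) and among HTODemux singlets (adjusted p = 0.0306), and *Nr1d1* with DESeq2 (adjusted p = 0.0297). The others in order of p were *Pomk*, *Fmo2*, *Sema6a*, *Pkdcc*, *Lilra5* and *Mfap4*, with log2 fold changes from -0.73 to -3.77 and adjusted p from 0.108 to 0.200. For *Mfap4* and *Fmo2* single cells of mice 8 and 10 held 46.8% to 83.5% of the UMIs. *Fmo2* was called with DESeq2 (adjusted p = 0.00653) and without mouse 6 (adjusted p = 0.0131), *Mfap4* with DESeq2 (adjusted p = 0.0359) and without mouse 6 (adjusted p = 0.0230), and *Lilra5* without mouse 6 (adjusted p = 0.0454).

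The transcripts that the study examined for an inflammatory state of resident macrophages were not called between the severities by edgeR with all 5 mice. *Nlrp3*, the sensor of the inflammasome, stood at 138, 126 and 251 CPM in mice 6, 8 and 10 and 383 and 269 CPM in mice 7 and 9 (log2 fold change 0.89 ± 0.27 (SE), adjusted p = 0.342). *Tnf* stood at 312, 311 and 317 CPM with dilation and 502 and 402 CPM with aneurysm (log2 fold change 0.51 ± 0.12 (SE), adjusted p = 0.216), and *Tnfsf9*, the ligand of 4-1BB, at 135, 133 and 186 CPM with dilation and 339 and 211 CPM with aneurysm (log2 fold change 0.83 ± 0.21 (SE), adjusted p = 0.247). For these 3 genes both mice with aneurysm were above all with dilation, and all 5 mutant mice were above the median of WT mice, 112 CPM for *Nlrp3*, 226 CPM for *Tnf* and 107 CPM for *Tnfsf9*. DESeq2 called *Tnf* (log2 fold change 0.52, adjusted p = 0.0417). With mouse 9 left out, edgeR gave *Tnfsf9* a log2 fold change of 1.14.

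The chemokines of the same set overlapped between the groups. *Ccl2*, which draws CCR2+ monocytes, stood at 1747, 1957 and 2569 CPM with dilation and 2724 and 2030.2 CPM with aneurysm (log2 fold change 0.16 ± 0.17 (SE), adjusted p = 0.881). *Cxcl1* stood at 247, 518 and 309 CPM with dilation and 803 and 383 CPM with aneurysm (log2 fold change 0.72 ± 0.32 (SE), adjusted p = 0.641) and *Cxcl2* at 8578, 9802 and 9096 CPM with dilation and 11519 and 9297 CPM with aneurysm (log2 fold change 0.17 ± 0.09 (SE), adjusted p = 0.701). Both draw neutrophils, and mouse 7 held the highest value of each. *Cxcl10*, an interferon-induced chemokine, stood at 382, 425 and 345 CPM with dilation and 345 and 364 CPM with aneurysm (log2 fold change -0.13 ± 0.11 (SE), adjusted p = 0.834). *Clec10a*, which encodes MGL1, stood at 302, 249 and 303 CPM with dilation and 356 and 272 CPM with aneurysm (log2 fold change 0.12 ± 0.15 (SE), adjusted p = 0.900), *Epor*, the erythropoietin receptor, at 15.8, 17.3 and 14.3 CPM with dilation and 12.2 and 11.2 CPM with aneurysm (log2 fold change -0.45 ± 0.22 (SE), adjusted p = 0.671), and *Pf4*, platelet factor 4, at 3744, 3606 and 2995 CPM with dilation and 3570.3 and 3091 CPM with aneurysm (log2 fold change -0.07 ± 0.10 (SE), adjusted p = 0.922). *Clec10a* and *Pf4* overlapped, and for *Epor* both mice with aneurysm were below.

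Lists of genes of inflammatory pathways held few calls, with medians above that of all genes. Calls are those of edgeR unless another tool is named. Calls made in other fits are given for some of the genes, and none of them is from the fit with no filter. Of 12 interleukin-1 and inflammasome genes 0 were called (4 at an unadjusted p under 0.05, 0 called by DESeq2), and 11 of 12 members tested had a fold change above 0 (median 0.33 on the log2 scale). The list had 7 of 10 above 0 (median 0.18) without the cells that held monocyte markers. *Il1b*, the main secreted cytokine of the list, stood at 194, 325 and 338 CPM in mice 6, 8 and 10 and 802 and 606 CPM in mice 7 and 9 (log2 fold change 1.28 ± 0.21 (SE), adjusted p = 0.0839). Its antagonist *Il1rn* stood at 24.9, 37.5 and 48.2 CPM with dilation and 90.5 and 63.7 CPM with aneurysm (log2 fold change 0.98 ± 0.23 (SE), adjusted p = 0.229) and the decoy receptor *Il1r2* at 0.607, 6.92 and 2.34 CPM with dilation and 8.62 and 16.8 CPM with aneurysm (log2 fold change 1.94 ± 0.55 (SE), adjusted p = 0.295). All 3 were higher in both mice with aneurysm. Over the whole list this held for 6 members and the reverse for 0, against 13.6% and 10.2% of all genes tested. *Il1b* was called without mouse 6 (adjusted p = 0.0202), without mouse 9 (adjusted p = 0.0440), with equal cell numbers (adjusted p = 0.0350) and after thinning (adjusted p = 0.00667). *Casp1*, *Pycard* and *Gsdmd*, which process the cytokine and release it, had log2 fold changes of 0.11 to 0.23. The WT mouse with the most *Il1b* held 499 CPM, below both values with aneurysm. *Il1b* UMIs lay in 79 of 200 and 104 of 274 cells with aneurysm and 38, 58 and 88 cells with dilation.

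Of the NF-kappaB list, 14 of 16 members tested had a fold change above 0 (median 0.28 on the log2 scale), with 0 called (5 at an unadjusted p under 0.05, 0 called by DESeq2). The subunit *Rel* stood at 292, 236 and 283 CPM with dilation and 422 and 337 CPM with aneurysm (log2 fold change 0.47 ± 0.14 (SE), adjusted p = 0.324). *Nfkb1* stood at 134, 130.4 and 144 CPM with dilation and 177 and 171 CPM with aneurysm (log2 fold change 0.33 ± 0.11 (SE), adjusted p = 0.382). *Zc3h12a*, an RNase that degrades cytokine transcripts, stood at 62, 59.8 and 63.1 CPM with dilation and 98.4 and 83.3 CPM with aneurysm (log2 fold change 0.53 ± 0.12 (SE), adjusted p = 0.211). *Nfkbia*, the most studied inhibitor of the pathway, overlapped at 2479, 2449 and 2303 CPM with dilation and 2501 and 2438 CPM with aneurysm. Without the cells that held monocyte markers, 14 of 16 members were again above 0 (median 0.27).

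Among TNF superfamily genes and receptors 6 of 10 members tested had a fold change above 0 (median 0.19 on the log2 scale), and 0 were called (4 at an unadjusted p under 0.05, 2 called by DESeq2). The list had 5 of 10 above 0 (median -0.017) without the cells that held monocyte markers. *Traf1*, an adaptor of TNF receptors, stood at 49.2, 35.1 and 35.1 CPM with dilation and 93 and 68.5 CPM with aneurysm (log2 fold change 1.02 ± 0.18 (SE), adjusted p = 0.108), above in both mice with aneurysm. *Traf1* was called with DESeq2 (adjusted p = 0.0245), without mouse 6 (adjusted p = 0.0252) and without mouse 9 (adjusted p = 0.0392). The receptors *Tnfrsf1a* and *Tnfrsf1b* overlapped, with log2 fold changes of -0.02 and 0.08. Among CXC chemokines *Cxcl3* was the 1 called of 9 tested (5 above 0, median 0.13), and the list had 2 of 5 above 0 (median -0.014) without the same cells. *Cxcl13*, at 185, 1.48 and 1.75 CPM with dilation and 2.15 and 3.63 CPM with aneurysm, was high in mouse 6 alone. Of 12 CC chemokines 0 were called (4 at an unadjusted p under 0.05, 0 called by DESeq2; 8 above 0, median 0.24). The list had 7 of 9 above 0 (median 0.22) without the same cells. *Ccl7*, another ligand of CCR2, stood at 835, 957 and 1087 CPM with dilation and 1649 and 1169 CPM with aneurysm (log2 fold change 0.53 ± 0.16 (SE), adjusted p = 0.312), *Ccl3* and *Ccl4* overlapped, and *Ccl17* was lower, at 9.72, 3.95 and 3.21 CPM with dilation and 0.359 and 1.12 CPM with aneurysm (log2 fold change -2.68 ± 0.73 (SE), adjusted p = 0.285).

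Genes of the JAK-STAT pathway, the one the mutation acts in, were 0 called of 27 tested (5 at an unadjusted p under 0.05, 0 called by DESeq2; 18 above 0, median 0.12). The list had 13 of 23 above 0 (median 0.11) without the cells that held monocyte markers. The feedback inhibitor *Socs3* stood at 290.4, 235 and 271 CPM with dilation and 413 and 291 CPM with aneurysm (log2 fold change 0.39 ± 0.16 (SE), adjusted p = 0.594). The STAT target *Pim1* stood at 419, 252 and 409 CPM with dilation and 604 and 454 CPM with aneurysm (log2 fold change 0.53 ± 0.21 (SE), adjusted p = 0.557), and the cytokine *Osm* at 71.7, 67.2 and 92.9 CPM with dilation and 109 and 103 CPM with aneurysm (log2 fold change 0.42 ± 0.15 (SE), adjusted p = 0.512). For all 3 both mice with aneurysm stood above, *Socs3* by the smallest margin. Over the whole list this held for 8 members and the reverse for 2, against 13.6% and 10.2% of all genes tested. *Stat3*, *Stat5a* and *Stat5b* overlapped, with log2 fold changes of 0.10 to 0.12. Of 14 interferon-stimulated genes tested 0 were called (2 at an unadjusted p under 0.05, 0 called by DESeq2; 13 above 0, median 0.33), and mouse 9 held the highest value of *Rsad2*, *Ifit2*, *Oasl1* and *Irf7*. *Rsad2*, an antiviral enzyme, stood at 8.5, 4.94 and 20.7 CPM with dilation and 8.97 and 60.4 CPM with aneurysm (log2 fold change 1.47 ± 0.66 (SE), adjusted p = 0.643). The list had 8 of 11 above 0 (median 0.28) without the cells that held monocyte markers. Among HTODemux singlets without marker cells, a set chosen after seeing the data, 2 of 8 interferon-stimulated genes were above 0 (median -0.51).

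**Figure D4:**
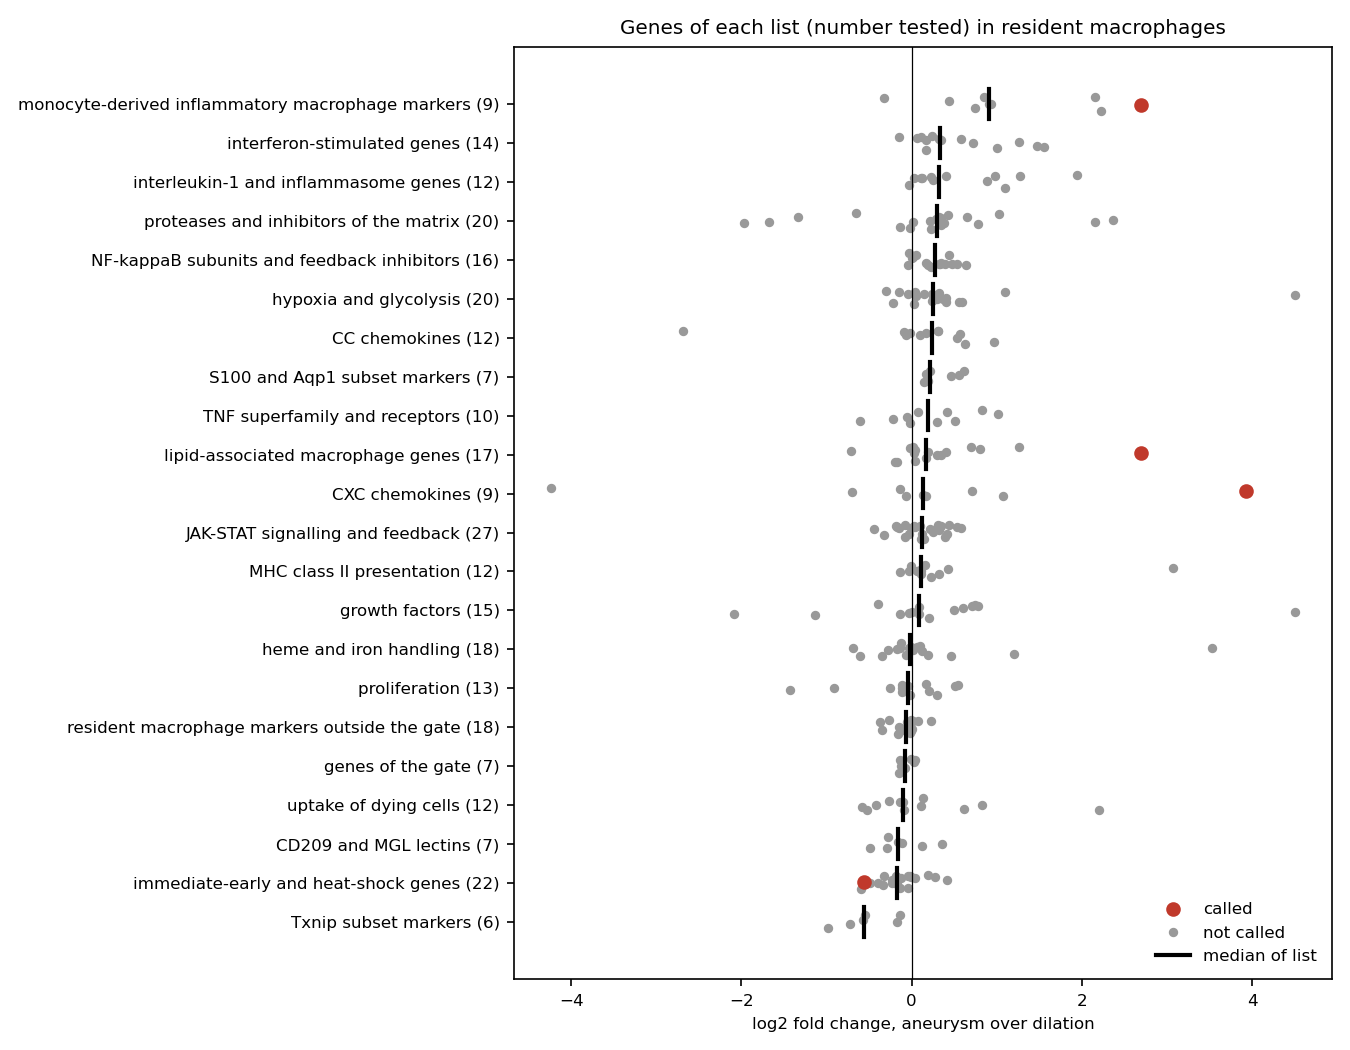
Log2 fold change, aneurysm over dilation (x axis), of every tested gene of 22 lists (y axis, number tested in brackets); vertical ticks are list medians, red points the called genes and gray points those not called. The median of inflammatory macrophage markers is 0.91 and that of Txnip subset markers -0.56, against -0.01 for all genes; Spp1 stands in a pair of lists.

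Markers of inflammatory macrophages of monocyte origin had the highest median among the lists of macrophage genes (0.91), with *Spp1* the 1 called of 9 tested (5 at an unadjusted p under 0.05, 2 called by DESeq2). Without the cells that held a UMI of 6 of these markers, 3 members could be tested, and the list had 3 of 3 above 0 (median 0.32). Among HTODemux singlets without marker cells, a set chosen after seeing the data, 2 of 3 were above 0 (median 0.065). *Ccr2*, the receptor by which monocytes enter tissue, stood at 87.5, 74.1 and 66 CPM in mice 6, 8 and 10 and 116 and 159 CPM in mice 7 and 9 (log2 fold change 0.85 ± 0.15 (SE), adjusted p = 0.108). *Ccr2* was called with DESeq2 (adjusted p = 0.0167), without mouse 6 (adjusted p = 0.0497), without mouse 7 (adjusted p = 0.0384) and after thinning (adjusted p = 0.00530). Its UMIs lay in 21, 24 and 41 cells with dilation and in 68 of 200 and 55 of 274 with aneurysm. *Plac8* stood at 1.21, 1.48 and 3.8 CPM with dilation and 6.82 and 16.5 CPM with aneurysm (log2 fold change 2.22 ± 0.51 (SE), adjusted p = 0.215) and *Mmp12* at 3.64, 3.95 and 3.21 CPM with dilation and 7.54 and 24 CPM with aneurysm (log2 fold change 2.15 ± 0.48 (SE), adjusted p = 0.195), with 87.2% of the *Mmp12* UMIs of mouse 9 in 1 cell. With mouse 7 left out, the log2 fold change of *Mmp12* was 2.71. *Fn1*, fibronectin, overlapped, with its highest value, 479.5 CPM, in mouse 10. *Ly6c2* and *Chil3*, defining markers of blood monocytes, were at 0 to 3.35 CPM in every mutant mouse.

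Genes of matrix remodeling, which weakens the aortic wall in aneurysm, were 0 called of 20 tested (11 at an unadjusted p under 0.05, 0 called by DESeq2; 14 above 0, median 0.30). The list had 10 of 14 above 0 (median 0.14) without the cells that held monocyte markers. *Mmp14*, the membrane-bound protease that activates gelatinase A, stood at 1.82, 0.494 and 1.17 CPM with dilation and 6.46 and 5.87 CPM with aneurysm (log2 fold change 2.37 ± 0.50 (SE), adjusted p = 0.163), in 11 and 13 cells with aneurysm and 3, 1 and 3 with dilation. *Plaur*, the urokinase receptor, stood at 66.8, 45.4 and 46.5 CPM with dilation and 107 and 75.2 CPM with aneurysm (log2 fold change 0.78 ± 0.19 (SE), adjusted p = 0.238), and the sheddase *Adam8* at 8.5, 13.3 and 8.77 CPM with dilation and 22.6 and 19.6 CPM with aneurysm (log2 fold change 1.03 ± 0.24 (SE), adjusted p = 0.226). The cathepsins *Ctsd*, *Ctsl* and *Ctss* were higher in both mice with aneurysm by log2 fold changes of 0.22 to 0.35, and *Ctsb* overlapped. In the whole list 9 members were higher in both and 2 lower in both, against 13.6% and 10.2% of all genes tested. *Mmp9*, gelatinase B, overlapped at 75.9, 51.4 and 35.4 CPM with dilation and 30.5 and 36.6 CPM with aneurysm, and *Timp2* differed by -0.01. *Timp3* stood lower at 1.82, 7.41 and 5.26 CPM with dilation and 1.44 and 1.12 CPM with aneurysm (log2 fold change -1.97 ± 0.62 (SE), adjusted p = 0.360).

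Genes of hypoxia and glycolysis were 0 called of 20 tested by edgeR (6 at an unadjusted p under 0.05, 1 called by DESeq2; 16 above 0, median 0.25). The list had 12 of 16 above 0 (median 0.12) without the cells that held monocyte markers. *Vegfa*, the angiogenic factor, had 0, 2 and 2 UMIs with dilation and 61 and 24 with aneurysm, or 0, 0.988 and 0.584 CPM in mice 6, 8 and 10 and 21.9 and 6.71 CPM in mice 7 and 9 (log2 fold change 4.50 ± 0.76 (SE), adjusted p = 0.0839). *Vegfa* was called with DESeq2 (adjusted p = 0.00426) and without mouse 9 (adjusted p = 0.00642). These UMIs lay in 15 and 12 cells with aneurysm, and 1 cell of mouse 7 held 31.1% of them. The hexokinase *Hk2* stood at 76.5, 46.9 and 57.9 CPM with dilation and 101 and 83.3 CPM with aneurysm (log2 fold change 0.59 ± 0.18 (SE), adjusted p = 0.330), *Pgk1* at 55.9, 52.9 and 45.6 CPM with dilation and 63.5 and 72.9 CPM with aneurysm (log2 fold change 0.40 ± 0.13 (SE), adjusted p = 0.368), and the lactate carrier *Slc16a3* at 4.25, 5.93 and 2.63 CPM with dilation and 9.69 and 8.1 CPM with aneurysm (log2 fold change 1.10 ± 0.38 (SE), adjusted p = 0.467). All 3 were higher in both mice with aneurysm, and *Pfkp*, *Pfkl*, *Tpi1* and *Mif* overlapped. In the whole list 7 members were higher in both and 1 lower in both, against 13.6% and 10.2% of all genes tested. Of 15 growth factors 0 were called (5 at an unadjusted p under 0.05, 1 called by DESeq2; 10 above 0, median 0.08). The list had 9 of 12 above 0 (median 0.16) without the same cells. *Pdgfa* stood at 18.2, 21.2 and 18.7 CPM with dilation and 32.7 and 31.6 CPM with aneurysm (log2 fold change 0.71 ± 0.17 (SE), adjusted p = 0.228), and *Il6*, listed here as a secreted factor, stood lower at 88.7, 23.2 and 37.7 CPM with dilation and 14 and 9.22 CPM with aneurysm (log2 fold change -2.09 ± 0.50 (SE), adjusted p = 0.228), with 58.9% of its UMIs of mouse 6 in 1 cell.

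Lipid-associated macrophage genes held 1 call of 17 tested, *Spp1* (6 at an unadjusted p under 0.05, 3 called by DESeq2; 13 above 0, median 0.17). The list had 9 of 15 above 0 (median 0.051) without the cells that held monocyte markers. *Abcg1*, which exports cholesterol, stood at 12.1, 17.8 and 22.2 CPM in mice 6, 8 and 10 and 42.7 and 45.8 CPM in mice 7 and 9 (log2 fold change 1.27 ± 0.21 (SE), adjusted p = 0.0839). *Abcg1* was called with DESeq2 (adjusted p = 0.0244), without mouse 6 (adjusted p = 0.0435) and with equal cell numbers (adjusted p = 0.0350). *Lgals3*, galectin-3, stood at 332, 249 and 337 CPM with dilation and 528 and 481 CPM with aneurysm (log2 fold change 0.70 ± 0.14 (SE), adjusted p = 0.151). *Lgals3* was called with DESeq2 (adjusted p = 0.00635) and after thinning (adjusted p = 0.0415). *Fabp5* stood at 20.7, 25.7 and 17.5 CPM with dilation and 34.8 and 39.4 CPM with aneurysm (log2 fold change 0.81 ± 0.18 (SE), adjusted p = 0.209). *Trem2* and *Apoe*, which mark the state most widely, overlapped, *Trem2* at 250.3, 298 and 243 CPM with dilation and 295 and 306 CPM with aneurysm. Heme and iron genes were 0 called of 18 tested (7 at an unadjusted p under 0.05, 0 called by DESeq2; 8 above 0, median -0.02). The list had 10 of 17 above 0 (median 0.022) without the same cells. Ferroportin, *Slc40a1*, stood at 30.4, 22.2 and 12 CPM with dilation and 58.5 and 36.9 CPM with aneurysm (log2 fold change 1.21 ± 0.31 (SE), adjusted p = 0.258), and *Hmox1* overlapped at 900.3, 992 and 882 CPM with dilation and 969 and 887 CPM with aneurysm. *Slc40a1* was called with equal cell numbers (adjusted p = 0.0477). The summed red cell genes ran from 88.7 to 6224 CPM with dilation and were 125 and 641 CPM with aneurysm, mostly in few cells, and their part in the heme list was not tested.

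Among cells kept by the gate, the genes by which resident macrophages are known and by which they clear dying cells differed little. The gate set a floor on the *Lyve1* list, which favors similar levels of resident markers in advance. In macrophages low in *Lyve1*, the 18 resident markers summed to 5642, 4635 and 8860 CPM with dilation and 3036 and 3068 CPM with aneurysm. In resident macrophages they summed to 13049 to 14243 CPM. Whether cells lost these markers and so left the gate was not tested. Of 18 resident markers outside the gate 0 were called (1 at an unadjusted p under 0.05, 0 called by DESeq2; 4 above 0, median -0.06), and without the cells that held monocyte markers 10 of 18 were above 0 (median 0.03). *Cd163* was the marker with the smallest p (log2 fold change -0.34 ± 0.10 (SE), adjusted p = 0.313). Of 12 genes for the uptake of dying cells 0 were called (5 at an unadjusted p under 0.05, 0 called by DESeq2; 5 above 0, median -0.10). The list had 6 of 10 above 0 (median 0.043) without the same cells. *Axl*, a receptor kinase that binds dying cells through GAS6, stood at 16.4, 26.2 and 17.2 CPM with dilation and 37.7 and 34.1 CPM with aneurysm (log2 fold change 0.83 ± 0.21 (SE), adjusted p = 0.234), while *Mertk*, of the same family, overlapped at 121, 134 and 166 CPM with dilation and 145 and 171 CPM with aneurysm. *Mfge8*, which bridges dying cells to integrins, stood at 24.9, 33.6 and 34.2 CPM with dilation and 19 and 24.9 CPM with aneurysm (log2 fold change -0.52 ± 0.20 (SE), adjusted p = 0.533).

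Lists for subsets that the study named within resident macrophages held no call of edgeR with all 5 mice. The lists are not the study's own. Its text names *Txnip*, *Trf* and *Stab1* for 1 subset and S100 genes for another, and does not name *Ddit4*, *Pla2g2d*, *Serpinf1* or *Aqp1*. The lists were chosen with earlier results of these data known. Of 6 *Txnip* subset markers all were below 0 (median -0.56, the lowest of the lists of macrophage genes), with 0 called (4 at an unadjusted p under 0.05, 2 called by DESeq2). *Txnip*, an inhibitor of glucose uptake, stood at 572, 516 and 468 CPM in mice 6, 8 and 10 and 317 and 401 CPM in mice 7 and 9 (log2 fold change -0.55 ± 0.13 (SE), adjusted p = 0.215). *Txnip* was called with DESeq2 (adjusted p = 0.0417). *Ddit4*, given above, is the other member that DESeq2 called. *Pla2g2d* stood at 59.5, 36.1 and 39.2 CPM with dilation and 30.9 and 29.3 CPM with aneurysm (log2 fold change -0.57 ± 0.21 (SE), adjusted p = 0.508) and *Serpinf1* at 29.8, 39 and 50.8 CPM with dilation and 30.5 and 20.4 CPM with aneurysm (log2 fold change -0.73 ± 0.25 (SE), adjusted p = 0.461). Without the cells that held monocyte markers all 6 were again below 0 (median -0.27). Of 7 S100 and *Aqp1* subset markers all were above 0 (median 0.22), with 0 called (2 at an unadjusted p under 0.05, 0 called by DESeq2). The list had 5 of 7 above 0 (median 0.19) without the same cells. *S100a11* stood at 176, 192 and 136 CPM with dilation and 271 and 225 CPM with aneurysm (log2 fold change 0.55 ± 0.15 (SE), adjusted p = 0.272). Lectins of the CD209 and MGL families were 0 called of 7 (1 at an unadjusted p under 0.05, 0 called by DESeq2; 2 above 0, median -0.15), and without the same cells 6 of 7 were above 0 (median 0.38).

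Genes of antigen presentation on MHC class II overlapped in all but few cases, with 0 called of 12 (2 at an unadjusted p under 0.05, 1 called by DESeq2; 9 above 0, median 0.11). *H2-Aa* stood at 1724, 1389 and 2209 CPM with dilation and 2384 and 1487 CPM with aneurysm and *Cd74* at 4383, 3625 and 5742 CPM with dilation and 6195 and 3763 CPM with aneurysm, so mouse 7 was highest and mouse 9 within the range of dilation. *H2-Oa*, which restrains peptide loading, stood at 1.21, 3.46 and 0.584 CPM with dilation and 17.6 and 10.3 CPM with aneurysm (log2 fold change 3.07 ± 0.53 (SE), adjusted p = 0.0924). *H2-Oa* was called with DESeq2 (adjusted p = 0.0245). Without the cells that held monocyte markers 2 of 10 class II genes were above 0 (median -0.49). Proliferation genes were 0 called of 13 (0 at an unadjusted p under 0.05, 0 called by DESeq2; 5 above 0, median -0.04), with *Mki67* at 45, 70.6 and 33.3 CPM with dilation and 68.2 and 43.6 CPM with aneurysm. Without the same cells 8 of 8 were above 0 (median 1.05). Over all resident macrophages the median cell did not rise. It held 0.772, 0.767 and 0.805 UMIs of the list per 10000 in mice 6, 8 and 10 and 0.689 and 0.692 in mice 7 and 9. The part of few dividing cells was not tested. *Lyz1* overlapped, at 451, 813 and 654 CPM with dilation and 533 and 469 CPM with aneurysm (log2 fold change -0.37 ± 0.20), and so did *Lyz2*.

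Genes of other cell types were low in most mice and high where few cells carried them. Fibroblast genes summed to 46.2, 57.8 and 233 CPM with dilation and 24.4 and 27.4 CPM with aneurysm, and 133 of the 147 *Col1a1* UMIs of mouse 10 lay in 1 cell. DESeq2 called *Col1a1* and *Col3a1* lower with aneurysm (adjusted p = 0.0484 and 0.0346), and edgeR called *Col3a1* without mouse 6 (adjusted p = 0.0196). Smooth muscle and endothelial genes summed to 3.59 to 9.06 CPM in 4 mutant mice and 179 CPM in mouse 8. B cell genes summed to 193 to 238 CPM and T and NK cell genes to 9.72 to 14 CPM in the 5 mutant mice. Dendritic cell genes summed to 31 to 75 CPM, with *Flt3* at 1.21, 2.96 and 1.75 CPM with dilation and 9.33 and 5.87 CPM with aneurysm (log2 fold change 1.87 ± 0.45 (SE), adjusted p = 0.233). Their part in the other results was not tested beyond the removal of cells given with each result.

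Surface antibodies gave no call. Their fold changes were taken on each antibody's share of all antibody counts, normalized by TMM, and not on the counts per cell printed beside them. These measures can differ in size. Of 73 antibodies tested by the same method 0 (0%) were higher and 0 (0%) lower at an adjusted p under 0.05; 5 had an unadjusted p under 0.05, DESeq2 called 1 higher and 2 lower, and a fit with all 10 mice called 1 higher. Isotype control antibodies, which bind no target, gave 0 to 0.788 counts per cell. TIM4, the protein of *Timd4*, stood at 46.6, 40.2 and 44.5 counts per cell in mice 6, 8 and 10 and 34.7 and 36.2 in mice 7 and 9 (log2 fold change -0.49 ± 0.12 (SE), adjusted p = 0.194). Its median cell held 29, 27 and 30 counts with dilation and 17.5 and 23 with aneurysm, and the transcript *Timd4* stood lower in both mice too (log2 fold change -0.27 ± 0.13, adjusted p = 0.671). The values with aneurysm lay within the range of WT mice, 31.7 to 39.3 counts per cell. Antibodies with larger p, such as CD68 and CD11c, were also apart between the groups in counts per cell, both higher with aneurysm. The share of all 73 antibodies whose groups did not overlap is not given here.

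CD44, the hyaluronan receptor that activated leukocytes raise, stood at 33.9, 25.4 and 26.1 counts per cell in mice 6, 8 and 10 and 55.8 and 39.2 in mice 7 and 9 (log2 fold change 0.53 ± 0.15 (SE), adjusted p = 0.253). Its transcript *Cd44* stood at 146, 119.5 and 124 CPM with dilation and 176 and 191 CPM with aneurysm (log2 fold change 0.48 ± 0.12 (SE), adjusted p = 0.228), so protein and transcript were both higher in each mouse with aneurysm than in any with dilation. CD55, which restrains complement, stood at 4.11, 3.82 and 3.08 counts per cell in mice 6, 8 and 10 and 7.58 and 4.61 in mice 7 and 9 (log2 fold change 0.52 ± 0.20 (SE), adjusted p = 0.642), and 23.9% of the counts of mouse 7 lay in 1 cell. CD226, an activating receptor of lymphocytes, stood at 5.8, 5.72 and 5.25 counts per cell in mice 6, 8 and 10 and 4.3 and 3.8 in mice 7 and 9 (log2 fold change -0.66 ± 0.12 (SE), adjusted p = 0.0890), with a median of 1 count per cell in all 5 mice. SiglecF, a marker of eosinophils, stood at 1.92, 1.56 and 1.84 counts per cell in mice 6, 8 and 10 and 3.65 and 3.98 in mice 7 and 9 (log2 fold change 0.92 ± 0.18 (SE), adjusted p = 0.0890). Its median was 1 count per cell in all 5 mice, single cells held 39.9% and 28.7% of the counts of mice 7 and 9 against 6.46% to 20.1% with dilation, and the transcript *Siglecf* had 6 UMIs in all mutant cells.

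**Figure D5:**
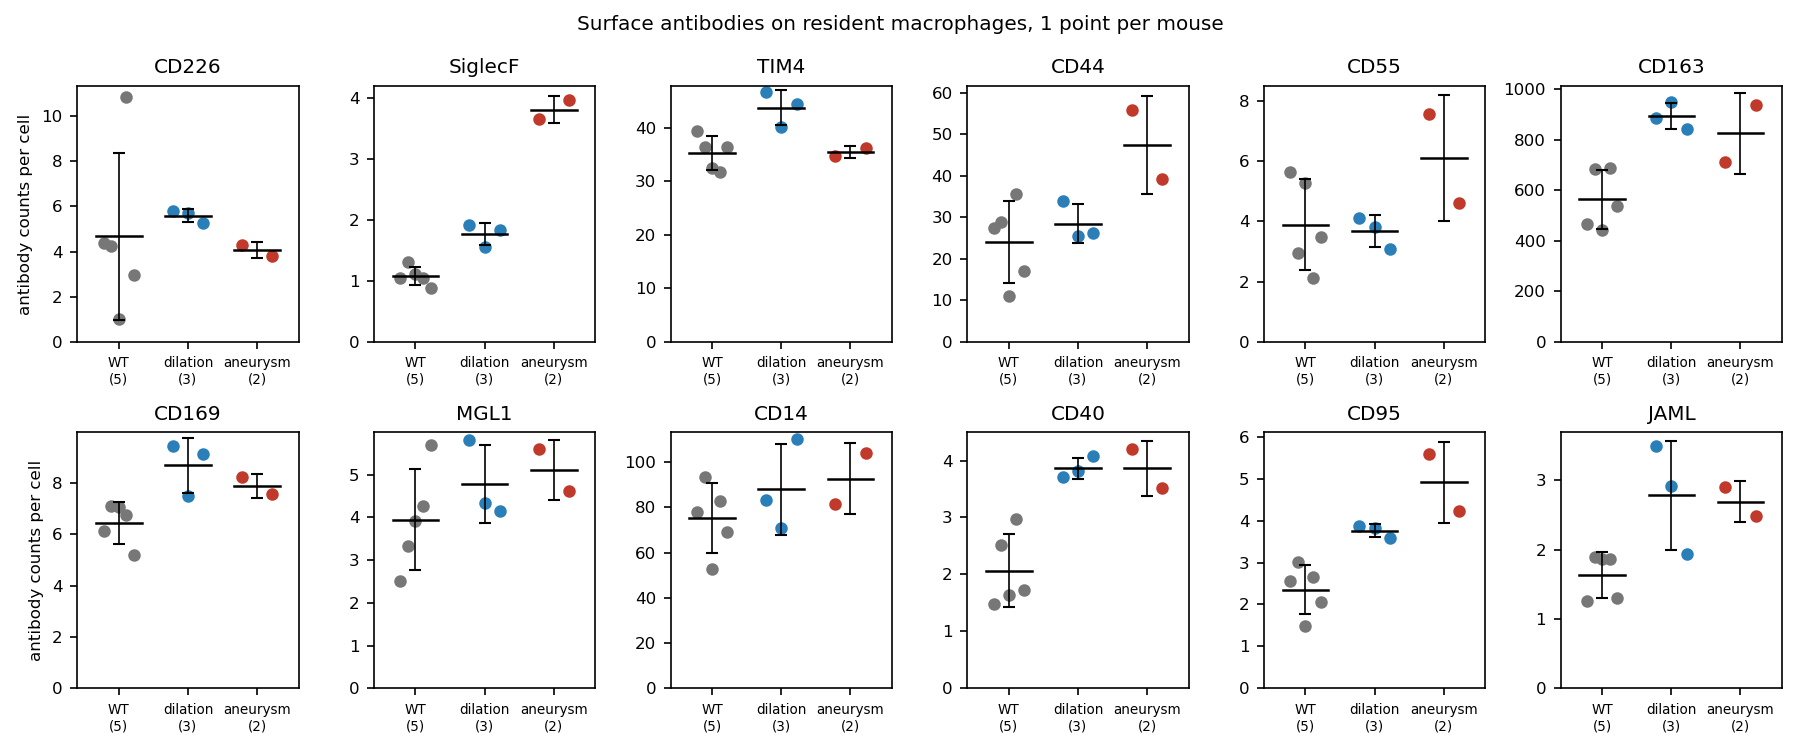
Mean counts per resident macrophage of 12 surface antibodies (y axes, from 0), 1 point per mouse in 5 WT, 3 dilation and 2 aneurysm mice; horizontal lines are means and bars the SD. TIM4 and CD226 are lower and CD44, CD55, CD95 and SiglecF are higher in both aneurysm mice than in the 3 dilation mice, and none of the 12 differed at an adjusted p under 0.05.

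None of the antibodies fixed for resident and inflammatory states was called by edgeR with all 5 mice. Of these antibodies, TIM4, given above, was lower and CD95 higher in both mice with aneurysm. CD163 stood at 887, 949 and 844 counts per cell in mice 6, 8 and 10 and 712 and 939 in mice 7 and 9 (log2 fold change -0.29 ± 0.22 (SE), adjusted p = 0.795), although its transcript was lower in both mice with aneurysm. CD169 stood at 9.45, 7.48 and 9.14 counts per cell in mice 6, 8 and 10 and 8.23 and 7.57 in mice 7 and 9 (log2 fold change -0.33 ± 0.14 (SE), adjusted p = 0.648). CD14, the receptor for lipopolysaccharide, stood at 83.1, 70.7 and 110.2 counts per cell in mice 6, 8 and 10 and 81.5 and 104 in mice 7 and 9 (log2 fold change -0.11 ± 0.26 (SE), adjusted p = 0.947), while its transcript *Cd14* stood at 619, 597 and 778 CPM with dilation and 1166 and 982 CPM with aneurysm (log2 fold change 0.67 ± 0.14 (SE), adjusted p = 0.151). The transcript *Cd14* was called with DESeq2 (adjusted p = 0.00648). For CD14 the transcript was higher in both mice with aneurysm, as were 13.6% of all genes tested, and the surface protein overlapped. MGL1, CD40, CD95, CD178 and JAML, which the study followed, had log2 fold changes from -0.24 to 0.18 with adjusted p from 0.795 to 0.979. CD95 stood at 3.88, 3.83 and 3.58 counts per cell in mice 6, 8 and 10 and 5.6 and 4.23 in mice 7 and 9 (log2 fold change 0.18 ± 0.14 (SE), adjusted p = 0.795). In counts per cell all 5 mutant mice were above the WT mice, which held 1.5 to 3.02. The hamster isotype control did the same, at 0.508 to 0.788 counts per cell in mutant mice and 0.269 to 0.475 in WT mice. The part of background binding in the CD95 values was not tested.

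Whether these differences were particular to resident macrophages was tested against macrophages of the same mice with C1q and a *Lyve1* list under 5 per 10000 (19, 14 and 102 cells in mice 6, 8 and 10, and 192 and 206 in mice 7 and 9). The difference between severities differed between the classes for 310 of 10216 genes (3.03%) at an adjusted p under 0.05, with the mouse as a block in edgeR. Of the 8 called genes, 3 were among them. The 8 genes were picked from the same sums of resident macrophages, so a larger difference in that class was favored in advance. *Tnfaip2* rose in resident macrophages and had a log2 fold change of -0.14 in the others (difference 1.62, adjusted p = 0.0349), *Cxcl3* had 0.86 in the others (difference 3.05, adjusted p = 0.0371), and *S100a8*, which 5 cells carried, had 0.83 (difference 4.21, adjusted p = 0.00987). For *Rcan1*, *Plscr1*, *Spp1* and *AA467197* the fold changes in the others were 1.76, 2.90, 3.60 and 4.78, and the test of the difference gave adjusted p from 0.667 to 0.864. *Jun* had -1.32 in the others (difference 0.80, adjusted p = 0.209).

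These comparisons between classes rest on few cells with dilation. Without mouse 10, which held most of the Lyve1-low cells of that group, 52 genes were called, and none of *Tnfaip2*, *Cxcl3* and *S100a8* was among them (adjusted p = 0.220, 0.507 and 0.598). *Cxcl3* and *Tnfaip2* were also not called without mouse 8, 7 or 9 (adjusted p = 0.0504 to 0.270). The values of the called genes in resident macrophages did not use these cells.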

How the data were processed

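Per the file headers, the values the authors deposited are raw UMI counts, 1 column a barcode, made with Cell Ranger 6.0.2 and the mm10 genome, for 32285 genes, 75 antibodies (73 with counts) and 10 hashtags; these counts were not normalized. The sample descriptions name Seurat 3.0.0. The members and lists were chosen with earlier results of these data known. Barcodes were assigned to mice by their top hashtag, not by HTODemux, which served as an alternative (Seurat 5.3.0, quantile 0.99). UMIs were summed per mouse (R 4.3.3, Matrix 1.6.5) and tested by edgeR 4.0.16 (filterByExpr, TMM, quasi-likelihood F test, two-sided, Benjamini-Hochberg, threshold 0.05), 2 against 3 mice; the SE was derived from the fold change and its F statistic. The mouse is the replicate, and precision is limited by 2 mice with aneurysm. Antibody counts were tested alike. The share of resident macrophages was tested by an exact permutation test over 10 arrangements. Lists are described by counts and medians, with no set test. Shares of cells with a UMI were taken after thinning each cell to 3000 UMIs where said. The test was run on simulated counts with the same dispersion for all genes. Genes whose UMIs lie in few cells were not simulated, so calls of that kind were not checked. Named genes are the called genes without overlap, called members of the lists, the genes of the gate, the genes and antibodies the study followed, and, in a direction with fewer than 10 calls, the 10 smallest p; other members of the lists and antibodies with an unadjusted p under 0.05 were named after their values were seen. Alternatives were DESeq2 1.42.0, RLE normalization, no filter, all 10 mice, each mouse left out, HTODemux singlets, a 10-fold hashtag limit, 5% mitochondrial UMIs, 6000 UMIs per cell, a stricter gate (60 and 45 per 10000), cells without monocyte markers, equal cell numbers, thinning, antibody totals and counts per cell; removal of cells with UMIs of other lineages, with and without HTODemux singlets, was chosen after seeing the data. Gene positions are from GENCODE vM21. Cluster labels of the authors were not used here. Cells pooled in 1 run share free RNA.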

Additional observations from a re-analysis of the deposited data

Results flagged for a closer look

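A single WT mouse stood apart from the other 4 in 4 of the called genes, by Dixon's test among 5 mice, which chance passes in about 1 of 20 groups; 21 groups were tested. WT mouse 2 held 145 CPM of *S100a8*, and 182 of its 191 UMIs lay in 1 cell. The same mouse held 9.84 CPM of *Cxcl3*, from 13 UMIs in 3 cells, and 93.8 CPM of *Tnfaip2*, with 64 of 124 UMIs in 1 cell. WT mouse 4 held 10.4 CPM of *Plscr1*, from 8 UMIs in 6 of 59 cells. None of these mice enters the comparison of aneurysm with dilation.

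The difference between aneurysm and dilation was larger in resident macrophages than in Lyve1-low macrophages of the same mice for *S100a8* by 4.21, for *Cxcl3* by 3.05 and for *Tnfaip2* by 1.62 on the log2 scale (edgeR interaction, adjusted p = 0.00987, 0.0371 and 0.0349). These genes were picked from the same resident sums, which favors such a difference in advance. For *S100a8* the value in resident macrophages rests on 1 cell of mouse 7 (411 of 423 UMIs) and 4 cells of mouse 9 (98.2% of 983), and without cells of other lineages its log2 fold change there was -0.54. With mouse 10 left out the differences were 3.22, 2.23 and 1.28 and no longer passed, and those of *Cxcl3* and *Tnfaip2* were also lost without mouse 8, 7 or 9 or with a *Lyve1* list under 15 as the other class.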

How the results depend on the processing

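The number of genes higher with aneurysm (7) was 23 with DESeq2, 195 with no filter on low counts (16496 genes, prior degrees of freedom infinite against 7.00), 0 in the fit of all 10 mice, 4 to 23 with each mouse left out, 2 among HTODemux singlets, 4 with a 10-fold hashtag limit, 4 with at least 6000 UMIs per cell, 1 under the stricter gate, 2 without cells with monocyte markers and 3 among singlets without marker cells. The number lower (1) was 10, 131 and 0 in the first 3, 1 to 15 with each mouse left out, 2 after thinning, and 0 under the stricter gate, without cells with monocyte markers and among singlets without marker cells. In the fit of all 10 mice, where WT mice share the estimate of the spread, 261 genes higher and 209 lower had an unadjusted p under 0.05. Of the 8 called genes, all were kept with DESeq2, RLE normalization, no filter and a 5% mitochondrial limit, 7 without mouse 6, 5 without mouse 8, 10, 7 or 9, 2 of 5 tested among singlets, 1 of 6 under the stricter gate and 2 of 4 without cells with monocyte markers. *Rcan1* was called in 17 of 19 alternatives, *Tnfaip2* in 16 of 19, *S100a8* in 12 of 18 and *Jun* in 11 of 19. The cause of these changes was not tested.

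Antibodies higher (0) were 1 with DESeq2 and 1 with all 10 mice, and antibodies lower (0) were 2 with DESeq2. Genes that differed between classes (310) were 768 with no filter, 132 with a *Lyve1* list under 15 as the other class, and 52 to 820 with each mouse left out. The share of resident macrophages differed by -25.7 to -36.2 points in its alternatives.

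The sign turned, always with an adjusted p above 0.7, for *S100a8* without cells of other lineages (-0.54); *Lyz2* with equal cell numbers (0.068) and with each mouse left out (-0.091 to 0.029); *Cxcl10* under the stricter gate (0.034) and among singlets without marker cells (0.0088); *Clec10a* among singlets (-0.026), under the stricter gate (-0.054), among singlets without marker cells (-0.030) and with each mouse left out (-0.10 to 0.31); MGL1 by antibody total (0.051), per cell (0.10) and with each mouse left out (-0.15 to 0.086); CD14 by total (0.044), per cell (0.075) and with each mouse left out (-0.41 to 0.17); and CD178 without cells with monocyte markers (-0.051) and with each mouse left out (-1.22 to 1.00). Leaving out each mouse also turned *Ccl2* (-0.076 to 0.37), *Cxcl2* (-0.0081 to 0.32) and *Pf4* (-0.19 to 0.044). No paired analysis was possible because each mouse has a hashtag number of its own and belongs to 1 group.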
